A study of Canis lupus familiaris with 39 samples.

Results

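Skeletal muscle was compared directly with liver across all 42860 probesets of the array, using the 4 skeletal muscle and the 4 liver arrays among the 39 arrays of the series. The members were the arrays whose labels name either tissue, and no measured value was used to choose them. RNA of 10 organs was measured from 4 healthy dogs, beagles and mixed breeds of both sexes, from pups of 3 months to adults of 6 years. All tissue was normal, untreated and without a genetic change, and each array held RNA of a whole piece of tissue, so every cell type in that piece contributed to it. Arrays carry a number from 1 to 4 within an organ. No label ties a number to 1 dog across organs, and none names the muscle that was sampled. By the study's methods all 10 organs came from each dog, but the main fit treated the arrays as independent. The p-values below rest on a spread between samples that was pooled over all 10 organs, not on the 4 muscle and 4 liver arrays alone. A gene that varies within another organ can therefore lack a call although its muscle and liver arrays lie apart. Conversely, a gene that varies among the muscle arrays but little in other organs can be called on a spread smaller than its own. The SD exceeded 1 for 2864 probesets among the muscle arrays and for 769 among the liver arrays. In whole tissue, fewer cells of a type and less RNA per cell cannot be told apart.

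Muscle and liver are the main stores of glycogen and the ends of several fuel cycles. Muscle breaks down glycogen for its own contraction and releases lactate and alanine, because it lacks the enzyme that frees glucose from its phosphate. Liver takes up lactate, alanine and glycerol, makes glucose and ketone bodies from them and from fat, and disposes of the nitrogen as urea. Many steps are run by a pair of genes, 1 used mainly in muscle and 1 in liver, so the comparison also sets those pairs side by side.

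Values are log2 units of the authors' normalized signal, in which a probeset that detects little lies at about 3 to 4 and the brightest near 14. Where 1 organ lies at about 3 to 4, the fold printed is set against that dim end of the scale and stands as a lower bound. A probeset was called when limma's adjusted p for muscle minus liver was under 0.001. A gene with several probesets was represented by the brightest over all 39 arrays. Its other probesets are described for some genes only, and elsewhere they may lack the call. Only 1 of 4 probesets was called for BCAT2, and 1 of 3 for MYH1, SLC6A8 and CA3. For CPS1, CPT1A and AK1 it was 1 of 2. Levels of different probesets were not set against each other, because each has its own brightness.

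The labelled tissues carried their markers. TNNC2, the calcium-binding troponin subunit of fast fibres, stood at 13.23, 13.54, 13.31 and 13.56 on the muscle arrays and at 3.80, 3.45, 3.75 and 3.74 on the liver arrays. HPX, the haem-binding hemopexin of plasma, stood at 5.33, 4.65, 4.83 and 4.89 in muscle and at 12.55, 12.46, 12.60 and 12.59 in liver. Neither pair of groups overlapped, and the differences were 843-fold toward muscle (adjusted p = 1.65e-16 from limma) and 197-fold toward liver (adjusted p = 4.57e-20). The array nearest to each of the 8 by Pearson's r over all probesets was of the same organ. Correlation among liver arrays ran from 0.952 to 0.980. Skeletal muscle array 1 correlated with the others at 0.889 to 0.896, while arrays 2, 3 and 4 correlated with one another at 0.925 to 0.962. Values that rest on array 1 are marked as such below.

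In all, 5829 probesets were called, 13.6% of those tested, with 2648 higher in muscle (6.18%) and 3181 higher in liver (7.42%). With 1 probeset for each of 15115 gene symbols, 15.8% were called, 6.96% higher in muscle and 8.87% higher in liver. Every count of list genes below is to be read against these shares. The median of all probesets differed by 0.07. Differences toward liver were larger, with a median size of 2.38 log2 units among called probesets against 1.80 toward muscle. When only the 8 arrays were fitted, 2016 probesets were called (715 and 1301). That fit has fewer arrays and takes its spread from muscle and liver alone, and the part of each was not tested. More than 10-fold separated the organs for 1009 probesets higher in liver and for 527 higher in muscle.

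**Figure D1:**
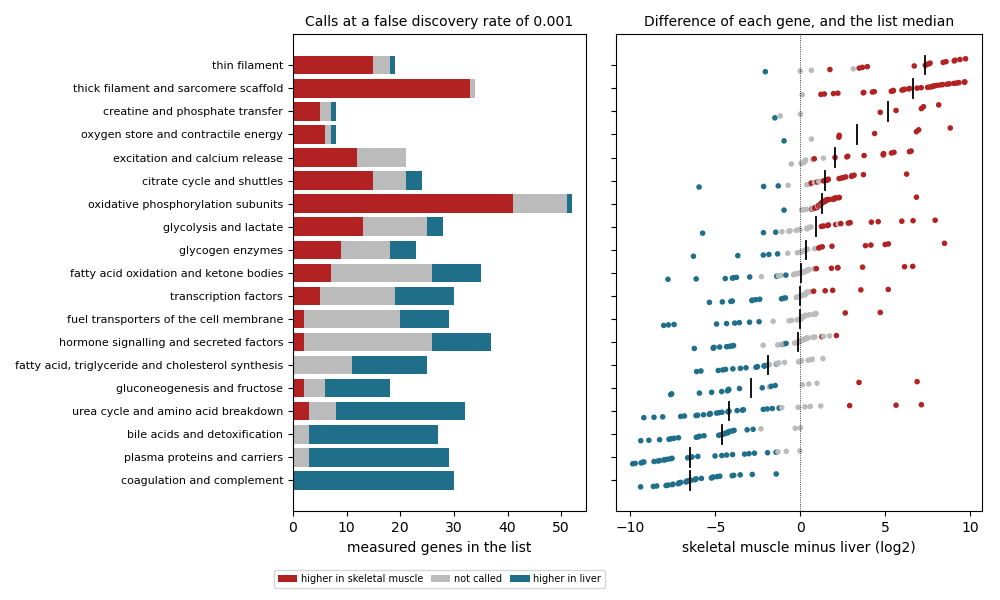
Left, the number of measured genes in each of 19 functional lists that were called higher in skeletal muscle, higher in liver or not called. Right, skeletal muscle minus liver in log2 units for each gene, coloured by its call, with the list median as a black bar. Contractile lists lie to the right (medians of 6.65 and 7.35), secreted liver proteins to the left (medians of -6.50 and -6.47), and the glycogen, glycolysis and transporter lists hold genes on both sides.

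Glycogen enzymes divided between the organs. Of 23 measured genes of glycogen synthesis, breakdown and control, 9 were higher in muscle, 5 higher in liver and 9 not called, against 6.96% and 8.87% of all genes, and their median difference was 0.36. PYGM, the muscle glycogen phosphorylase that releases glucose phosphate from the polymer, stood at 11.06, 12.43, 12.19 and 12.63 in muscle and between 3.49 and 3.72 in liver. PYGL, the liver phosphorylase, stood at 5.98, 4.60, 4.55 and 4.76 in muscle and at 10.65, 11.40, 11.55 and 11.44 in liver. The groups lay apart for both genes in opposite directions, 357-fold toward muscle for PYGM (adjusted p = 2.56e-22) and 78.2-fold toward liver for PYGL (adjusted p = 1.48e-11 from limma). All 4 probesets of PYGL were called higher in liver. PYGB, the phosphorylase named for brain, had means of 6.37 ± 0.59 in muscle and 5.53 ± 0.24 in liver (SD, n = 4) and was not called. Among the other 8 organs the highest mean of PYGM was 11.01, in heart, and that of PYGL was 7.42, in lung.

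Subunits of the kinase that switches phosphorylase on differed in direction and in call. PHKG1, its catalytic subunit in muscle, stood at 9.33, 9.55, 10.04 and 10.14 in muscle and at 5.03, 4.56, 4.91 and 4.61 in liver, a 31.7-fold difference (adjusted p = 1.50e-16). PHKG2, the catalytic subunit known from liver, had means of 5.86 in muscle and 6.03 in liver and was not called. For the regulatory alpha subunits, PHKA1 stood at 3.43, 6.31, 4.65 and 6.70 in muscle and at 3.44, 3.31, 3.64 and 3.26 in liver. The muscle values of PHKA1 spread over more than 3 log2 units, and array 1 lay among the liver arrays, so the call of 1.86 log2 units toward muscle (adjusted p = 5.86e-05) came with overlapping groups. PHKA2, the alpha subunit of liver, stood at 4.17, 5.60, 4.11 and 4.07 in muscle and at 7.73, 8.16, 8.01 and 8.77 in liver, 12.8-fold higher in liver (adjusted p = 4.38e-09). PHKB, the beta subunit that both organs use, was 14.2-fold higher in muscle, at 9.71 ± 0.60 against 5.88 ± 0.41.

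On the side of synthesis, GYG1, the glycogenin that primes a new particle, stood at 10.60, 11.26, 12.07 and 11.54 in muscle and at 5.90, 6.05, 6.31 and 6.47 in liver. That was a 36.3-fold difference with no overlap (adjusted p = 8.72e-16), and its second probeset was called in the same direction. GYS2, the liver glycogen synthase, stood at 3.65, 3.25, 3.67 and 3.28 in muscle and at 6.23, 7.18, 4.66 and 4.49 in liver. Every liver array lay above every muscle array, with liver arrays 1 and 2 above arrays 3 and 4, and the difference was 4.53-fold toward liver (adjusted p = 4.21e-07). The probeset chosen for GYS1, the muscle synthase, was dim in both organs (3.81 and 3.75) and not called. A second GYS1 probeset stood at 3.66, 5.83, 5.39 and 6.25 in muscle and between 3.25 and 3.32 in liver, higher in muscle by 1.99 log2 units (adjusted p = 2.41e-06), with its lowest muscle value on array 1. GBE1, the branching enzyme, was 3.61-fold higher in liver (adjusted p = 0.000297), with liver array 4 at 7.49 inside the muscle range of 6.11 to 8.03.

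Of 4 measured proteins that direct phosphatase to glycogen, 1 was called. PPP1R3A, the targeting subunit of striated muscle, stood at 6.20, 8.15, 6.80 and 8.19 in muscle and between 3.11 and 3.25 in liver, 17.8-fold higher in muscle (adjusted p = 2.17e-13). PPP1R3C, a targeting subunit of several tissues, stood at 3.75, 7.14, 9.80 and 8.88 in muscle and at 7.18, 8.70, 7.71 and 4.94 in liver. The arrays of each organ spread widely, with the lowest muscle value on array 1 and the lowest liver value on array 4, and the gene was not called. PPP1R3B, the targeting subunit known from liver, stood at 3.56, 3.70, 5.28 and 3.84 in muscle and at 3.73, 4.16, 3.69 and 3.36 in liver and was not called. PPP1R3D, another of these subunits, lay between 3.43 and 3.98 on all 8 arrays and was not called (adjusted p = 0.0381). GAA, the lysosomal glucosidase that digests glycogen, was 2.53-fold higher in liver (adjusted p = 0.000443). PGM1, which interconverts glucose phosphates, was 2.21-fold higher in muscle, and UGP2, which makes the activated glucose for synthesis, had means of 10.98 and 11.72 and was not called by its brightest probeset. The dimmest of 4 UGP2 probesets was called higher in liver by 2.06 log2 units. In place of 14 calls in the whole list, 9 were made after arrays were brought to an equal median of housekeeping genes, and 8 when only the 8 arrays were fitted. The calls of GBE1 and GAA were also lost when single arrays were left out.

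**Figure D2:**
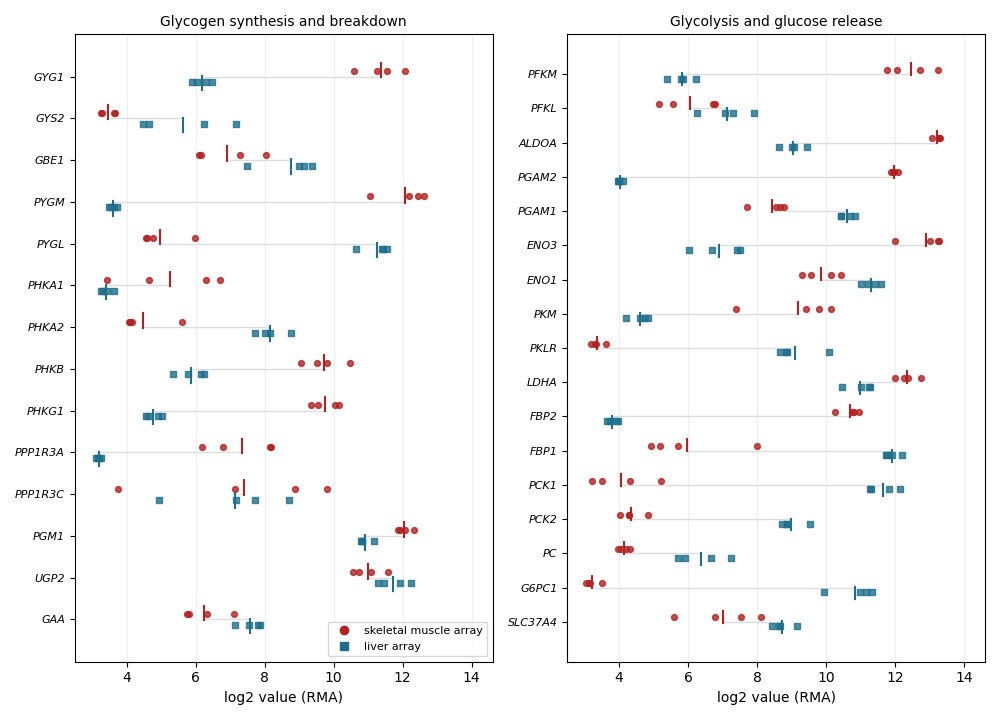
Log2 values of each skeletal muscle array (red circles) and liver array (blue squares) for genes of glycogen turnover (left) and of glycolysis and glucose release (right), with a vertical bar at each mean of 4 arrays. The isozyme pairs PYGM and PYGL, PKM and PKLR, and FBP2 and FBP1 point in opposite directions, while PPP1R3C runs from 3.75 to 9.80 in muscle.

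Glycolysis held more genes toward muscle. Of 28 measured genes of glycolysis and lactate, 13 were higher in muscle, 3 higher in liver and 12 not called, with a median difference of 0.93. The muscle isozymes carried the largest differences. PGAM2, the muscle phosphoglycerate mutase, stood at 11.87, 11.95, 11.93 and 12.07 in muscle and at 3.98, 4.12, 3.99 and 4.0 in liver, a 244-fold difference with little spread in either organ (adjusted p = 1.34e-26). PFKM, the muscle phosphofructokinase that commits sugar to glycolysis, stood at 11.77, 12.73, 12.04 and 13.25 in muscle and at 5.86, 5.40, 6.22 and 5.80 in liver, 98.9-fold higher in muscle (adjusted p = 5.99e-19). ENO3, the muscle enolase, stood at 12.00, 13.25, 13.01 and 13.26 in muscle and at 7.50, 6.02, 6.69 and 7.42 in liver (62.8-fold, adjusted p = 5.54e-19 from limma).

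Among the partners of these enzymes, PGAM1 and ENO1, both widely expressed, ran the other way. ENO2, another enolase, was called higher in muscle by 1 of its 3 probesets, and PFKP, another phosphofructokinase, was not called. PGAM1 stood at 8.65, 7.70, 8.79 and 8.55 in muscle and at 10.44, 10.69, 10.42 and 10.83 in liver, 4.50-fold higher in liver (adjusted p = 9.54e-10). ENO1 stood at 10.13, 10.44, 9.56 and 9.30 in muscle and at 11.22, 11.01, 11.58 and 11.40 in liver, 2.73-fold higher in liver (adjusted p = 3.09e-06). PFKL, the liver phosphofructokinase, had means of 6.06 ± 0.82 and 7.14 ± 0.69 and was not called by its brightest probeset, while 1 of its other 3 was called higher in liver by 1.08. ALDOA, the muscle aldolase, stood between 13.06 and 13.30 in muscle and between 8.63 and 9.45 in liver, 18.2-fold higher in muscle. ALDOC, another aldolase, was not called. The aldolase B and lactate dehydrogenase B genes had no probeset with that single symbol and were not analysed here.

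The last step of glycolysis was sharply divided. PKM, the pyruvate kinase of muscle and most tissues, stood at 7.39, 9.41, 9.78 and 10.15 in muscle and at 4.60, 4.20, 4.74 and 4.85 in liver, 24.0-fold higher in muscle (adjusted p = 1.45e-12). PKLR, the pyruvate kinase of liver and red cells, stood at 3.62, 3.32, 3.19 and 3.30 in muscle and at 8.87, 8.85, 8.65 and 10.08 in liver, 53.8-fold higher in liver (adjusted p = 9.50e-21). Muscle array 1 was the lowest for PKM and liver array 4 the highest for PKLR, and neither broke the separation. LDHA, which turns pyruvate into lactate, was 2.56-fold higher in muscle (12.35 ± 0.31 against 10.99 ± 0.38, adjusted p = 1.08e-07). PDK4, a brake on pyruvate oxidation, lay higher on all 4 muscle arrays (11.49 to 12.57) than on the liver arrays (8.46 to 10.40), but its adjusted p was 0.0384. Non-overlapping groups of this kind, with every muscle array above every liver array, were found for 12.4% of all genes. HK1 and HK2, which trap glucose in the cell, stood at 6.0 or less on all 8 arrays and were not called, although the muscle arrays lay above the liver arrays for both.

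Genes of glucose release were on the liver side. Of 18 measured genes of gluconeogenesis and fructose use, 12 were higher in liver, 2 higher in muscle and 4 not called, with a median difference of -2.91. G6PC1, the phosphatase that frees glucose, stood at 3.16, 3.05, 3.52 and 3.12 in muscle and at 11.33, 10.97, 11.14 and 9.93 in liver. PCK1, which makes phosphoenolpyruvate from oxaloacetate in the cytosol, stood at 4.32, 3.22, 5.21 and 3.52 in muscle and at 11.27, 11.83, 12.14 and 11.30 in liver. The organs were far apart for both, 198-fold for G6PC1 (adjusted p = 8.74e-13) and 190.0-fold for PCK1 (adjusted p = 1.12e-08). Kidney, the other organ that makes glucose, was the highest of the other 8 for both, at 11.31 and 11.82.

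The mitochondrial enzyme PCK2 was 24.8-fold higher in liver (8.71, 8.86, 8.86 and 9.53 against 4.83, 4.30, 4.30 and 4.02, adjusted p = 2.22e-19). PC, the pyruvate carboxylase that opens the pathway, was 4.74-fold higher in liver by its brighter probeset, and the second was dim and not called. SLC37A4, which carries glucose phosphate to the phosphatase, was 3.29-fold higher in liver, with muscle spread from 5.60 to 8.10. Fructose bisphosphatase formed another pair. FBP1, the liver enzyme, stood at 8.01, 4.94, 5.71 and 5.20 in muscle and at 11.91, 11.75, 11.73 and 12.21 in liver, 61.2-fold higher in liver (adjusted p = 1.10e-11). FBP2, the muscle enzyme, stood at 10.80, 10.94, 10.26 and 10.74 in muscle and at 3.92, 3.64, 3.73 and 3.97 in liver, 117-fold higher in muscle (adjusted p = 4.69e-22). The other gene of the list toward muscle was AKR1B1, an aldose reductase of sorbitol synthesis, while SORD, the next enzyme of that path, was 19.5-fold higher in liver. G6PC3, a phosphatase of most tissues, had means of 5.27 and 5.15 and was not called.

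Carriers of fuel across the cell membrane were mostly low in both organs. Of 29 measured, 9 were higher in liver, 2 higher in muscle and 18 not called, against 8.87% and 6.96% of all genes. SLC2A2, the low-affinity glucose carrier of liver, stood between 3.20 and 3.35 in muscle and at 9.01, 9.34, 8.39 and 6.03 in liver, 30.5-fold higher in liver (adjusted p = 2.70e-07), with liver array 4 below the other three. For SLC2A4, the carrier that insulin brings to the surface of muscle, the brightest probeset stood at 4.62, 4.55, 4.63 and 5.11 in muscle and at 3.83, 3.78, 4.04 and 4.14 in liver, without a call (adjusted p = 0.00111). A second SLC2A4 probeset stood at 4.18, 5.92, 6.59 and 6.51 in muscle and between 3.62 and 3.90 in liver, and was called higher in muscle by 2.01 log2 units (adjusted p = 1.50e-06). SLC16A3, a lactate exporter, stood at 4.41, 6.57, 8.31 and 7.31 in muscle and between 3.84 and 4.18 in liver (6.25-fold, adjusted p = 3.47e-06), again lowest on muscle array 1. SLC6A8, the creatine carrier, was 26.1-fold higher in muscle (8.86, 8.16, 9.69 and 8.95 against 3.35, 3.79, 4.78 and 4.94).

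Toward liver lay SLC27A5 and SLC27A2, which activate bile acids and very long fatty acids, by 263-fold and 218-fold. SLC10A1, which takes up bile salts, followed at 173-fold, with muscle between 3.76 and 4.05 and liver between 11.07 and 11.50. The amino acid carriers SLC38A3 and SLC38A4, which bring glutamine and alanine into liver cells, were 20.2-fold and 14.5-fold higher in liver. AQP9, a glycerol channel, was 37.2-fold higher in liver and GK, which phosphorylates glycerol, 18.7-fold.

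Fatty acid oxidation had calls in both directions, and its entry points were split. Of 35 measured genes of oxidation and ketone bodies, 7 were higher in muscle, 9 higher in liver and 19 not called. FABP4, also a marker of fat cells, is 1 of the 7. Of all genes 6.96% and 8.87% were called in these directions, and the list's median difference was 0.02. CPT1B, the muscle form of the enzyme that admits fatty acids to mitochondria, stood at 7.33, 7.26, 8.0 and 7.66 in muscle and at 5.40, 5.38, 5.27 and 5.41 in liver, 4.59-fold higher in muscle (adjusted p = 1.44e-08). CPT1A, the liver form, stood at 5.97, 5.39, 4.07 and 5.04 in muscle and at 7.34, 10.19, 9.38 and 9.26 in liver, 15.2-fold higher in liver (adjusted p = 3.56e-07). The groups did not overlap for either gene, and CPT1A was lowest on liver array 1.

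The fatty acid binding proteins divided likewise. FABP3, of heart and muscle, stood at 11.05, 11.21, 11.39 and 11.23 in muscle and at 4.60, 4.19, 4.91 and 4.73 in liver (97.9-fold, adjusted p = 7.97e-17). FABP1, of liver, stood at 4.34, 3.57, 3.93 and 6.28 in muscle and at 5.17, 12.88, 10.37 and 7.39 in liver. Liver array 2 was far the highest for FABP1, and liver array 1 lay below muscle array 4, so its call toward liver (21.5-fold, adjusted p = 9.91e-05) came with overlapping groups and was lost without liver array 3 (adjusted p = 0.00101). Among the enzymes of oxidation itself, ACADM, a medium-chain dehydrogenase (11.24 ± 0.41 and 11.06 ± 0.41), and HADHA, of the trifunctional protein (10.39 ± 0.37 and 10.19 ± 0.24), were not called. ACAA1, the thiolase of peroxisomes, was 13.5-fold higher in liver (8.74 ± 0.43 against 12.50 ± 0.21, adjusted p = 2.82e-15), and all 3 of its probesets were called. ACAA2, the thiolase of mitochondria, was higher in liver by 0.85 log2 units (10.58 ± 0.24 against 11.43 ± 0.19, adjusted p = 0.000542), and both of its probesets were called, although that call was lost without any 1 of 5 arrays (adjusted p of 0.00129 to 0.00463). EHHADH, a peroxisomal enzyme, had means of 8.96 and 9.02 and was not called by its brighter probeset, while the other was 19.7-fold higher in liver (adjusted p = 8.21e-09). ACSL5 and CYP4A11, which activate and omega-oxidize fatty acids, were 70.1-fold and 222-fold higher in liver. BDH1, which makes the ketone body hydroxybutyrate, was 16.0-fold higher in liver by its brightest probeset, and all 5 of its probesets were called in that direction. OXCT1, with which other tissues burn ketone bodies, had means of 5.60 and 5.58 and was not called. LPL, which draws fatty acids from plasma triglyceride, was 12.6-fold higher in muscle, at 4.73, 8.70, 7.37 and 7.33 against 3.28 to 3.57, although its call was lost without array 2 (adjusted p = 0.00145).

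None of 25 measured genes of fatty acid, triglyceride and cholesterol synthesis was called higher in muscle, and 14 were higher in liver by limma's test, with a median difference of -1.93. At an unadjusted p under 0.05, 3 were higher in muscle and 18 higher in liver. LPIN1, a phosphatase of triglyceride synthesis, had the largest difference toward muscle (1.33) without a call (adjusted p = 0.0107), and was called without muscle array 1, its lowest (1.90, adjusted p = 3.77e-05). ACLY, which makes cytosolic acetyl-CoA from citrate, stood at 7.41, 6.24, 6.40 and 6.33 in muscle and at 11.09, 11.07, 10.58 and 11.22 in liver (21.1-fold, adjusted p = 2.43e-13). FASN, the fatty acid synthase, stood at 4.55, 4.35, 5.03 and 4.79 in muscle and at 9.01, 8.03, 6.58 and 9.21 in liver (11.5-fold, adjusted p = 3.74e-05). SQLE, of cholesterol synthesis, was 57.7-fold higher in liver, DGAT2, of triglyceride synthesis, 28.4-fold and LIPC, a lipase that liver secretes, 68.4-fold. The citrate carrier SLC25A1, which feeds ACLY, stood at 4.31, 4.97, 4.05 and 4.38 in muscle and at 10.52, 9.88, 10.32 and 10.84 in liver, 62.4-fold higher in liver (adjusted p = 2.02e-15).

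**Figure D3:**
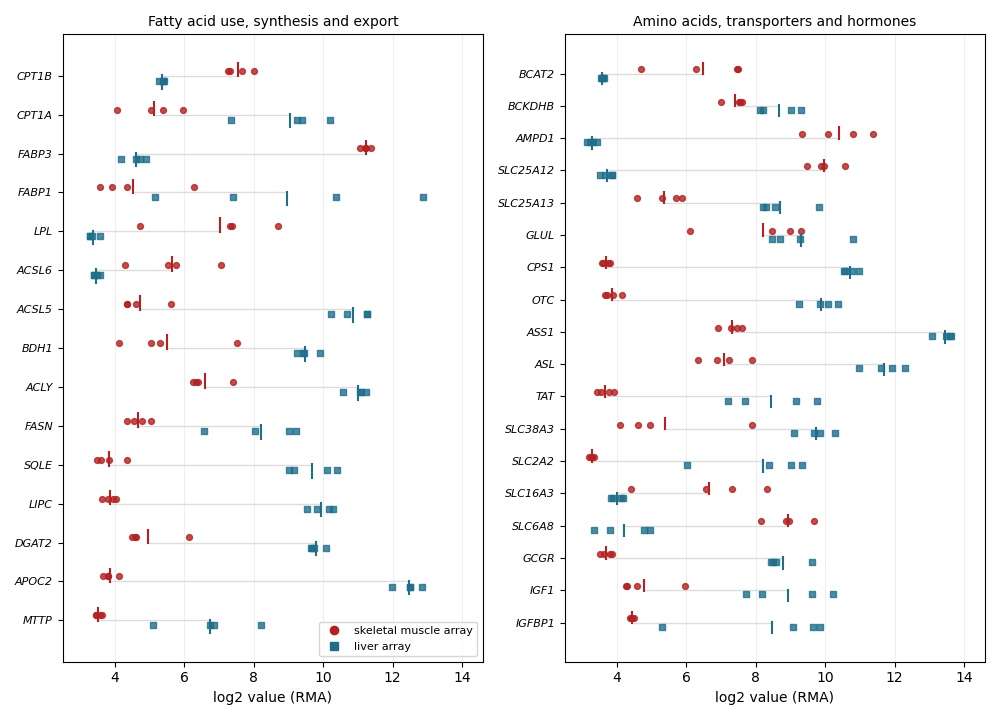
Log2 values of each skeletal muscle array (red circles) and liver array (blue squares) for genes of fatty acid use, synthesis and export (left) and of amino acids, transporters and hormones (right), with a vertical bar at each mean of 4 arrays. FABP1 and MTTP spread widely among the liver arrays, while CPS1 and OTC lie at 9.24 or above on every liver array and at 4.14 or below on every muscle array.

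Amino acid breakdown and the urea cycle were mostly on the liver side. Of 32 measured genes, 24 were higher in liver, 3 higher in muscle and 5 not called, with a median difference of -4.21. CPS1, which captures ammonia, stood at 3.80, 3.58, 3.75 and 3.59 in muscle and at 10.98, 10.77, 10.55 and 10.56 in liver (131-fold, adjusted p = 1.02e-23). OTC, the next enzyme, stood at 4.14, 3.65, 3.89 and 3.72 in muscle and at 10.38, 9.85, 10.07 and 9.24 in liver (65.7-fold, adjusted p = 1.30e-23). ASS1 and ASL, which complete the middle of the cycle, were 70.3-fold and 24.5-fold higher in liver, and NAGS, which makes the activator of CPS1, 3.87-fold. ARG1, which releases urea, was not called by its brightest probeset (7.52 and 7.26), but 2 of its other 3 probesets were higher in liver by 7.06 and 7.88 log2 units. HPD, of tyrosine breakdown, and BHMT, of methionine metabolism, were 593-fold and 392-fold higher in liver.

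The 3 genes toward muscle belong to branched-chain amino acids and the purine cycle. BCAT2, which starts the breakdown of leucine, isoleucine and valine, stood at 4.69, 7.45, 7.50 and 6.29 in muscle and between 3.54 and 3.63 in liver (7.47-fold, adjusted p = 7.90e-06). BCKDHB, a subunit of the next enzyme of that path, was 2.37-fold higher in liver (7.41 ± 0.28 against 8.66 ± 0.58, adjusted p = 0.000332). That call was lost without muscle array 3 (adjusted p = 0.00281), without liver array 1 (0.00374) and without liver array 3 (0.0025). AMPD1 and ADSS1, which turn the purine nucleotide cycle of working muscle, were 139-fold and 49.6-fold higher in muscle. GLUL, which makes glutamine, stood at 6.11, 8.48, 9.29 and 8.98 in muscle and at 9.27, 10.80, 8.48 and 8.69 in liver and was not called. The alanine aminotransferase GPT, which joins the organs in the glucose-alanine cycle, was not called by its brightest probeset (8.13 ± 0.58 and 9.95 ± 1.02), while its other 2 were called higher in liver by 2.51 and 2.07.

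Most mitochondrial energy genes were higher in muscle. Of 52 measured subunits of oxidative phosphorylation, 41 were higher in muscle, 1 higher in liver and 10 not called, with a median difference of 1.25. In complex I, 23 of 26 were called higher in muscle, with differences between 1.01 and 2.28. In complex III it was 6 of 7, in complex V 7 of 9, and in complex IV 4 of 5. All 4 subunits of complex II, the part shared with the citrate cycle, were without a call, with differences between 0.08 and 0.71. SDHB stood at 9.61, 11.05, 11.22 and 11.55 in muscle and between 10.64 and 10.84 in liver, and SDHD at 6.75, 9.62, 9.28 and 10.27 in muscle and between 8.02 and 9.32 in liver. For both, muscle array 1 lay below all liver arrays, and arrays 2 to 4 lay above the liver mean. The difference between complex II and the others was not tested.

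**Figure D4:**
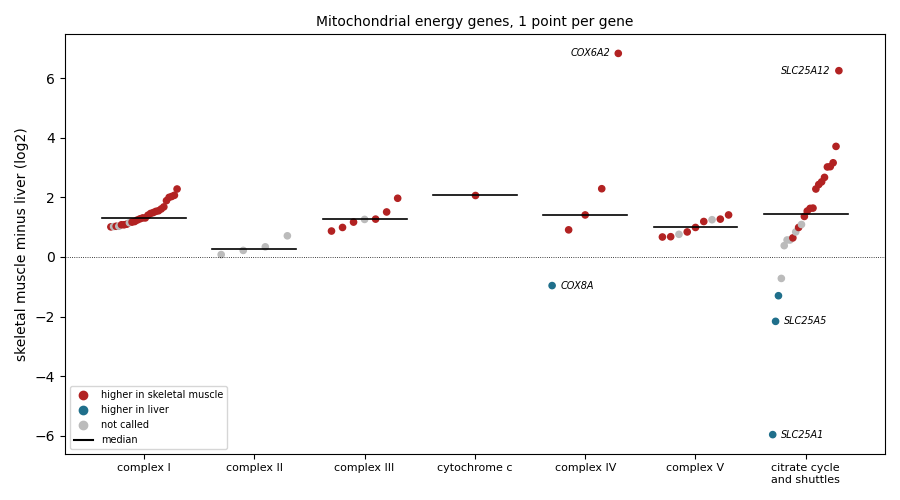
Skeletal muscle minus liver in log2 units for each subunit of the respiratory complexes, for cytochrome c, and for the citrate cycle with its shuttles, coloured by call, with a black bar at the median. Complex I, III and V genes lie between 0.67 and 2.28, complex II between 0.08 and 0.71, and COX6A2 of complex IV lies at 6.83. Among the carriers, SLC25A12 lies at 6.25 and SLC25A1 at -5.96.

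COX6A2, the subunit of cytochrome oxidase particular to heart and muscle, exceeded the rest of the list, at 12.05, 11.61, 11.64 and 11.61 in muscle and 4.90, 4.69, 5.28 and 4.73 in liver (114-fold, adjusted p = 8.36e-24). The call toward liver was COX8A, at 8.91, 8.31, 9.68 and 9.24 in muscle against 10.06, 10.01, 9.76 and 10.15, which was lost when single arrays were left out, and its other 3 probesets were not called. The list's count was sensitive to scaling and to the choice of arrays, with 25 members called after arrays were brought to an equal median of housekeeping genes, 17 when only the 8 arrays were fitted, and 16 when muscle was represented by array 2.

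Among 24 genes of the citrate cycle and its shuttles, 15 were higher in muscle and 3 higher in liver. CS, the citrate synthase, stood at 9.65, 10.32, 10.80 and 10.37 in muscle and at 7.10, 7.80, 6.86 and 6.74 in liver (8.95-fold, adjusted p = 4.65e-08). The aspartate-glutamate carriers formed a pair, with SLC25A12 at 9.48, 9.88, 9.96 and 10.56 in muscle and between 3.50 and 3.87 in liver, and SLC25A13, the form that serves the urea cycle, at 4.59, 5.29, 5.88 and 5.69 in muscle and 8.55, 9.81, 8.21 and 8.29 in liver. They differed 76.0-fold toward muscle (adjusted p = 1.61e-20) and 10.2-fold toward liver (adjusted p = 8.95e-08). The carriers that exchange ATP for ADP were likewise split, with SLC25A4 4.87-fold higher in muscle and SLC25A5 4.46-fold higher in liver. For succinate-CoA ligase, SUCLA2, of the ATP-forming enzyme, was 8.11-fold higher in muscle and SUCLG2, of the GTP-forming enzyme, 2.45-fold higher in liver. The call of SUCLG2 was lost without muscle array 1 (adjusted p = 0.00103). IDH3B, a subunit of isocitrate dehydrogenase, had probesets called in both directions, at 2.43 and -2.84.

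Of 8 measured genes of creatine and phosphate transfer, 5 were higher in muscle, 1 higher in liver and 2 not called. Of the 5, AMPD1 and ADSS1 were also counted above with amino acid breakdown, and SLC6A8 with the carriers. CKMT2, the mitochondrial creatine kinase of sarcomeres, stood at 11.00, 11.81, 11.68 and 12.56 in muscle and between 3.47 and 3.72 in liver (283-fold, adjusted p = 1.47e-22). AK1, an adenylate kinase, was 151-fold higher in muscle, while AK4, an adenylate kinase of mitochondria, was 2.82-fold higher in liver (7.56 ± 0.38 against 9.05 ± 0.31, adjusted p = 0.000377). The call of AK4 was lost without any 1 of 5 arrays (adjusted p of 0.00139 to 0.0029). GAMT, which completes creatine synthesis, had means of 8.98 ± 0.69 and 10.17 ± 0.29 and was not called (adjusted p = 0.00223), and GATM, which starts it, had means of 4.68 and 4.66. MB, the oxygen store myoglobin, stood at 10.63, 12.52, 13.22 and 13.11 in muscle and between 3.51 and 3.59 in liver (453-fold, adjusted p = 1.99e-16). CA3, a carbonic anhydrase of slow muscle, stood at 7.79, 10.88, 11.32 and 10.69 in muscle and at 3.75, 3.77, 9.16 and 6.52 in liver, so that liver array 3 lay above muscle array 1. Its call, 20.7-fold toward muscle (adjusted p = 7.21e-06), was lost when only the 8 arrays were fitted.

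The contractile apparatus gave most of the largest differences toward muscle. Of 34 measured genes of the thick filament and sarcomere scaffold, 33 were called higher in muscle, and of 19 thin filament genes 15 were. Fast and slow fibre genes were both present. MYH2, a fast myosin, stood at 13.28, 12.89, 13.29 and 13.13 in muscle and between 3.39 and 3.64 in liver (801-fold, adjusted p = 5.07e-13). MYH7, the slow myosin that heart shares, stood at 13.01, 12.59, 12.16 and 12.33 in muscle and between 3.82 and 4.0 in liver (393-fold, adjusted p = 9.19e-24). MYH1, another fast myosin, stood at 11.18, 13.34, 8.60 and 13.11, lowest on array 3, and was 238-fold higher in muscle. MYH4, the fastest myosin of small animals, stayed between 4.18 and 5.86 in muscle and was 2.32-fold higher there. The troponins TNNC1 and TNNT1 of slow fibres (671-fold and 529-fold) and TNNI2 and TNNT3 of fast fibres (549-fold and 380-fold) were all among the 15 largest differences.

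Several thin filament genes turned on the probeset. TPM1, a tropomyosin of muscle and other cells, was called higher in liver by its brightest probeset (-2.06) and higher in muscle by another (4.97). TPM3 was not called by its brightest probeset (-0.01), while another gave 4.73 toward muscle. Of 629 listed genes with a probeset, 424 had more than 1, and 2 (TPM1 and IDH3B) were called in both directions. A further 19 were called only by a probeset other than the brightest, 12 toward muscle and 7 toward liver.

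Of 21 genes of excitation and calcium release, 12 were higher in muscle, 0 higher in liver and 9 not called by limma's test, with a median difference of 2.04. At an unadjusted p under 0.05 there were 17 and 1. ATP2A1, the calcium pump of fast fibres and a marker of muscle, was not called by its brightest probeset (5.59 and 6.12). Its other 2 probesets stood at 13.14, 13.44, 13.21 and 13.64 and at 11.30, 12.77, 13.17 and 13.21 in muscle, against 3.86 to 6.42 in liver, higher in muscle by 8.29 and 7.88. CACNA1S, the voltage sensor of the tubules, was 41.0-fold higher in muscle (9.45 ± 0.49 against 4.10 ± 0.12). CASQ1, which holds calcium in the reticulum, stood at 6.02, 10.06, 9.27 and 9.55 in muscle and between 3.68 and 3.96 in liver, with array 1 apart from the other three. RYR1, the release channel, was dim by its 1 probeset (4.18 and 3.88) and not called.

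Secreted proteins gave most of the largest differences toward liver. All 30 measured genes of coagulation and complement were called higher in liver, with a median difference of -6.50, and 26 of 29 plasma proteins and carriers were. APOH, a plasma glycoprotein that binds phospholipid, stood at 3.58, 3.21, 3.45 and 3.34 in muscle and at 13.14, 13.24, 13.40 and 13.22 in liver (928-fold, adjusted p = 6.90e-11). ALB, serum albumin, stood at 3.93, 3.89, 4.13 and 3.72 in muscle and at 13.75, 13.59, 13.71 and 13.49 in liver (843-fold, adjusted p = 5.52e-07). FGG, FGA and FGB, the fibrinogen chains, were 677-fold, 349-fold and 402-fold higher in liver. Acute-phase genes varied among the liver arrays, with CRP at 6.58, 5.07, 3.77 and 6.11 and SAA1 at 7.69, 10.46, 6.02 and 6.32. SAA1 was also at 9.45 on muscle array 1 against 5.04 to 5.42 on the other muscle arrays, and was not called.

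Of 27 genes of bile acids and detoxification, 24 were higher in liver. CYP2E1, which oxidizes ethanol and small solvents, stood between 3.90 and 4.25 in muscle and between 13.41 and 13.58 in liver (671-fold, adjusted p = 5.60e-13). CYP7A1, which commits cholesterol to bile acids, stood at 3.52, 3.32, 3.38 and 3.30 in muscle and at 9.45, 10.21, 6.41 and 4.27 in liver. Liver arrays 1 and 2 stood far above arrays 3 and 4 for CYP7A1, all of them above the muscle range, and the difference was 18.4-fold (adjusted p = 1.40e-06). BAAT, which joins bile acids to taurine or glycine, was at 3.56 in both organs by its 1 probeset, and ALDH2, a mitochondrial aldehyde dehydrogenase, had means of 11.52 and 11.82. NNMT, a methyltransferase of nicotinamide, stood at 10.07, 6.34, 4.42 and 4.77 in liver and was not called.

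The gene symbol COL27A1, a fibrillar collagen, was also among the 15 largest differences toward liver (-9.03, adjusted p = 2.82e-11). Of the 5 probesets carrying that symbol, 2 gave -9.03 and -9.40, and both were nearly as high in lung (means of 13.21 and 12.57) as in liver (13.54 and 12.88). The other 3 lay between 3.53 and 4.38 in all 10 organs and differed by -0.37 to -0.02. The symbol is the platform table's, and which of these probesets measure the gene is not known here.

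Regulators divided in both directions. Of 30 measured transcription factors, 5 were higher in muscle, 11 higher in liver and 14 not called, against 6.96% and 8.87% of all genes. MEF2C, a factor of striated muscle, stood at 7.48, 10.00, 8.80 and 9.08 in muscle and between 3.56 and 3.77 in liver (35.9-fold, adjusted p = 4.99e-15), and MYF6, of mature fibres, at 5.69, 8.18, 7.81 and 8.17 against 3.81 to 3.97 (11.8-fold). MYOD1, MYF5 and MYOG, which drive the formation of muscle, stood at 4.87 or less on all 8 arrays and were not called. NR1H4, the bile acid receptor, stood at 4.61, 5.11, 4.29 and 4.59 in muscle and at 9.52, 9.78, 10.92 and 9.79 in liver (40.8-fold, adjusted p = 2.57e-16). Its target NR0B2 and the factor NR5A2 were 17.1-fold and 24.2-fold higher in liver. HNF4A, which maintains liver cells, was dim by both probesets and not called.

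Of 37 genes of hormone signalling and secreted factors, 11 were higher in liver and 2 higher in muscle, against 8.87% and 6.96% of all genes. GCGR, the glucagon receptor, stood at 3.80, 3.64, 3.86 and 3.51 in muscle and at 8.58, 8.43, 8.49 and 9.62 in liver (33.8-fold, adjusted p = 2.85e-20). IGF1, the growth factor that liver releases under growth hormone, stood at 4.59, 5.95, 4.27 and 4.28 in muscle and at 9.63, 10.23, 8.18 and 7.71 in liver (17.9-fold, adjusted p = 3.59e-08). IGFBP1, which binds it and falls with insulin, stood at 9.07, 9.64, 5.29 and 9.84 in liver, with array 3 low, and between 4.38 and 4.50 in muscle (16.3-fold, adjusted p = 5.22e-08). The 2 genes toward muscle were AMP-activated kinase subunits, but another, PRKAB1, was called higher in liver by 1 of its 4 probesets. PRKAA1, PRKAB2, PRKAG1 and PRKAG2 of the same kinase were not called. PRKAA2, a catalytic subunit, stood at 4.13, 7.47, 7.01 and 7.65 in muscle and between 4.02 and 4.98 in liver, with array 1 inside the liver range (4.34-fold, adjusted p = 9.63e-05, and 0.0011 without array 2). PRKAG3, a regulatory subunit of fast muscle, stood at 4.30, 5.39, 5.69 and 5.15 against 3.73 to 4.01 (2.41-fold, adjusted p = 1.49e-05). INSR, the insulin receptor, was dim by both probesets.

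Markers of other cell types were compared in the same way. The 14 genes of sinusoidal and Kupffer cells, which line and patrol liver capillaries, were higher in liver in 13 cases, with list means of 7.35 to 8.27 on the liver arrays and 4.33 to 5.53 on the muscle arrays. CD163, a scavenger receptor of macrophages, stood at 6.50, 4.74, 3.12 and 4.03 in muscle and between 8.21 and 9.25 in liver. Bile duct markers were mostly near background, and 2 of 8 were called, EPCAM and SPP1, both higher in liver, although the SPP1 call was lost when single arrays were left out. Lymphocyte markers (0 of 15), nerve markers (0 of 8) and red blood cell markers (0 of 3) gave no call in limma's test, against 1, 2 and 1 at an unadjusted p under 0.05. Of 14 endothelial markers FLT1 and VWF were higher in muscle, of 10 adipocyte markers FABP4 and PLIN4, and of 9 smooth muscle markers ACTG2 and SYNPO2. Among all genes 6.96% were called higher in muscle and 8.87% higher in liver. The lists with 2 calls are short, and whether any of them exceeds those shares was not tested. FLT1, PLIN4 and ACTG2 were each called by 1 of 3 probesets.

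**Figure D5:**
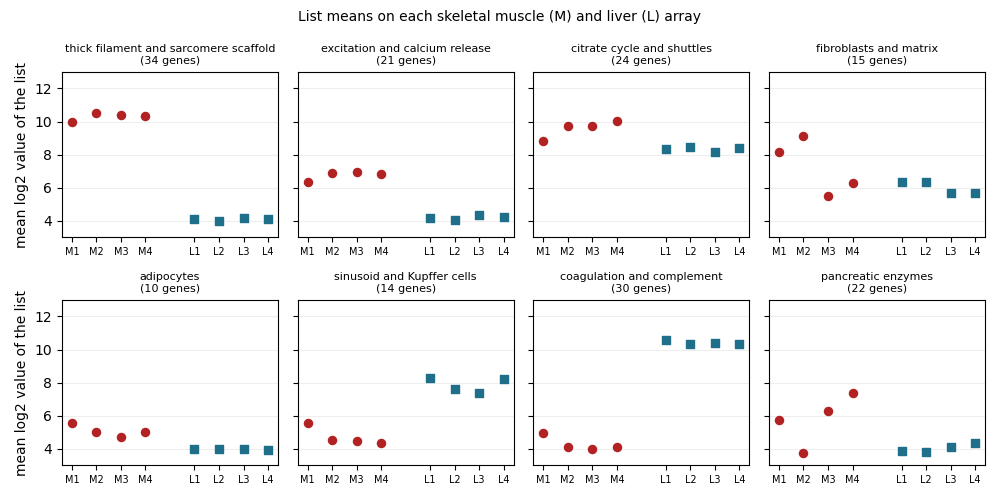
Mean log2 value of 8 gene lists on each skeletal muscle array (M1 to M4, red) and liver array (L1 to L4, blue). Sarcomere genes are even across the muscle arrays, matrix genes are high on M1 and M2, adipocyte, Kupffer and complement genes are highest in muscle on M1, and pancreatic enzymes are high on M1, M3 and M4.

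The muscle arrays differed among themselves in several of these lists. Matrix genes of fibroblasts had list means of 8.18, 9.14, 5.50 and 6.28 on the muscle arrays and 5.67 to 6.33 on the liver arrays. COL1A1, of fibrous collagen, stood at 12.32, 12.69, 8.20 and 6.82 in muscle and at 7.74, 8.47, 6.72 and 6.48 in liver, and was not called (adjusted p = 0.0704). DPT, a matrix protein, was the 1 call among the 15 matrix genes, at 8.95, 8.90, 3.54 and 6.07 in muscle. It lost the call when 7 of the 8 arrays were left out in turn, all but muscle array 3, and the count of matrix genes called ran from 0 to 3. ADIPOQ, the fat cell hormone adiponectin, stood at 9.47, 6.01, 6.06 and 6.42 in muscle and between 5.71 and 6.19 in liver. Complement C3 stood at 10.54, 3.83, 4.37 and 6.07 in muscle, and RBP4, a retinol carrier of liver and fat, at 10.21, 7.05, 5.71 and 5.23. By list mean array 1 was the highest muscle array for fat (5.53) and complement genes (4.96), and it was the lowest for CASQ1, MB, SLC16A3, PKM and PRKAA2. The part of these other cells in the differences was not tested. Without array 1, 6014 probesets were called, 2948 of them higher in muscle.

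Transcripts of pancreatic enzymes were set aside when the largest differences were named, but they remain in the counts of called probesets. The 22 measured genes of that list had means of 5.73, 3.73, 6.28 and 7.35 on the muscle arrays and 3.79 to 4.37 on the liver arrays, and 9 were called higher in muscle, against 6.96% of all genes. PNLIP, the pancreatic lipase, stood at 7.95, 4.01, 9.25 and 11.08 in muscle, high on arrays 1, 3 and 4, and at 3.89, 3.74, 3.92 and 5.14 in liver. CEL, a lipase activated by bile salts, stood at 7.18, 3.39, 8.59 and 10.03 in muscle and at 5.61, 4.60, 8.73 and 10.17 in liver. INS, the islet hormone, was between 3.03 and 3.33 on all 8 arrays. With muscle represented by array 2, which lacked these transcripts, 3706 probesets were called and 0 of the 22 enzymes, and the single muscle array was then assumed to vary like the other organs. Under that choice 10 glycogen genes, 13 of glycolysis and 12 of gluconeogenesis were called, against 14, 16 and 14 with all arrays. Without array 4 alone 4 of the enzymes were called, and without array 2 alone 13.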

How the data were processed

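RNA of normal dog organs was hybridised to Affymetrix Canine 2.0 arrays. Tissue had been kept in RNAlater and RNA extracted with TRIzol, per the study's methods. The deposited values are log2 signal that the authors made in Partek by RMA (adjustment for probe GC content and sequence, background correction, quantile normalization and median polish). They ran it over all 39 arrays after leaving out 1 pancreas array. Scanner files were not used here. Deposited log2 values ran from 2.61 to 14.74, with array medians of 3.95 to 4.11, and 4 arrays a group limit the precision.

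A mean per organ was fitted over all 39 arrays with limma 3.58.1 in R 4.3.3, so that all 10 organs shared the estimate of spread, and muscle minus liver was tested with Benjamini-Hochberg adjustment over 42860 probesets at 0.001, the threshold of the methods. Scan date, a random factor in the methods, was not used here. Adjusted p-values throughout are from limma, and ± marks the SD of 4 arrays. The fit was tested on data generated with known differences.

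A platform table gave 29254 probesets 1 gene symbol, 439 several and 13167 none, and those with several or none were not named. Of 745 listed genes 629 had a probeset, and the others, among them muscle creatine kinase, aldolase B and glucokinase, were not analysed here. The housekeeping list (13 measured) served for a scaling alternative, and PPIA, B2M and GUSB of it were called higher in liver. Each list's genes with the 4 largest and 4 smallest differences, chosen isozymes and the markers were named by rule. So were the 15 largest differences each way with non-overlapping groups. The text omits many genes of this rule, among them MYLPF, TTN, TTR and ACACA. PHKB, GAA, PGM1, UGP2, PDK4, PCK2, PC, SLC37A4, SORD, G6PC3, SLC38A3, SLC38A4, GK, ACADM, HADHA, ACAA1, ACAA2, EHHADH, OXCT1, ACLY, FASN, MTTP, OTC, ASS1, ASL, NAGS, ARG1, BCKDHB, GLUL, SLC25A13, SLC25A4, SUCLA2, IDH3B, MYH1, CASQ1, RYR1, CRP, CYP7A1, MYOD1, MYF5, MYOG, HNF4A, IGF1, IGFBP1, INSR, CD163, C3 and RBP4 fall outside it and were chosen after their values were seen. PRKAA1, PRKAB1 and PRKAB2, given without values, fall outside it too. The comparison and its gene lists were chosen with earlier results of these data known. Alternatives were other variance estimates and scalings, a filter on dim probesets, a replicate block, every probeset of a gene, and leaving out arrays.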

Additional observations from a re-analysis of the deposited data

Results flagged for a closer look

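In 326 groups of 4 arrays, for the 163 genes given above with values, in each organ, 1 array stood apart from the other 3 by Dixon's criterion in 27. Chance gives about 1 in 20 for independent groups picked without regard to their values. Many of these genes were chosen after their values were seen, and all share the same arrays, so that rate is no yardstick here. Skeletal muscle arrays accounted for 18 of the 27 and skeletal muscle array 1 for 10.

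On skeletal muscle array 1, ADIPOQ (9.47), SAA1 (9.45), DGAT2 (6.14), PYGL (5.98), ACLY (7.41) and COX6A2 (12.05) were above the other muscle arrays, as was NNMT at 4.25 near the dim end. GAMT (7.94), MYF6 (5.69) and ALDOA (13.06) were below them there. On skeletal muscle array 2, PHKA2 (5.60) and NR5A2 (4.44) were high and NR0B2 (3.75) was low. On array 3, PPP1R3B (5.28) and CYP4A11 (3.07) were high, and TPM1 (6.31) and BCKDHB (7.0) low. SLC2A4 was high on array 4 (5.11).

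Among liver arrays, array 4 was high for PKLR (10.08), GCGR (9.62), PGM1 (11.17) and PNLIP (5.14) and low for AQP9 (6.86). IGFBP1 was low on array 3 (5.29) and PYGL on array 1 (10.65). GATM (7.08) and PGAM2 (4.12) were high on array 2.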

How the results depend on the processing

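Of 122 called genes among the 163 given with values, 73 were called under every alternative run. PNLIP reversed, at -0.16 with muscle represented by array 2. Fitting the 8 arrays alone gave 2016 called probesets in place of 5829, with 715 higher in muscle and 1301 in liver, and 101 of the genes named by rule. It left 8 glycogen, 8 glycolysis, 4 transporter, 5 fatty acid oxidation, 8 lipid synthesis, 6 excitation, 4 oxygen store, 17 oxidative phosphorylation, 6 citrate cycle, 6 transcription factor and 5 hormone genes, 5 of sinusoids and Kupffer cells, 1 each of endothelium and bile duct, and 0 of the pancreatic, fibroblast, adipocyte, smooth muscle and housekeeping lists. An equal median of housekeeping genes gave 1635 probesets higher in muscle, 9 glycogen, 25 oxidative phosphorylation and 10 transcription factor genes, and 1 each of endothelium and adipocytes. Array 2 as the single muscle array, assumed to vary like the other organs, gave 3706 probesets, 1793 of them higher in liver, and 9 fatty acid oxidation, 7 lipid synthesis, 16 oxidative phosphorylation, 7 sinusoid and Kupffer and 5 fibroblast genes, 1 each of endothelium, smooth muscle and housekeeping, and 0 pancreatic enzymes. The filter on dim probesets left 1 adipocyte gene, and ordinary variance 1 bile duct and 0 fibroblast genes. Some alternatives used fewer arrays or probesets, and the cause of these changes was not tested.

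With the replicate number as a block, 6265 probesets and 2 fibroblast genes were called, and SLC2A4 passed the threshold. The deviations of arrays with the same number correlated at 0.06, 0.30, -0.08 and -0.06, so the numbers were not taken to pair the samples.

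Leaving out each array in turn gave 5181 to 6014 called probesets, 4 to 13 pancreatic, 0 to 3 fibroblast, 1 to 2 endothelial and bile duct genes, and 0 to 1 nerve genes. BCKDHB lost its call without muscle array 3 (-1.11) or liver array 1 (-1.03) or 3 (-1.13). GBE1 lost it without muscle array 1 (-1.61) or 2 (-1.59) or liver array 1 (-1.73), 2 (-1.77) or 3 (-1.64), and SUCLG2 without muscle array 1 (-1.07). PRKAA2 lost it without muscle array 2 (1.81) or 4 (1.76). GAA did so at -1.36 to -1.17 without any of 6 arrays, SPP1 at -2.60 to -2.18 without any of 6, COX8A at -0.96 to -0.72 without any of 5, ACAA2 at -0.88 to -0.74 and AK4 at -1.49 to -1.34 each without any of 5, and PNLIP at 2.90 to 3.94 without any of 6. HK2 (0.74, without muscle array 1), MYF5 (0.45, without muscle array 3), GPT (-2.29, without liver array 2) and UGP2 (-0.94, without muscle array 4) gained one.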
